A study of Mus musculus with 6 samples.

Results

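Keratin and keratin-associated protein genes are described here by the time at which their DNA replicated in proliferating mouse myeloid cells. The members were all autosomal protein-coding genes of the RefSeq mouse annotation (GRCm38.p6, the build also called mm10) whose symbol was Krt followed by a number or began with Krtap. There were 109 such genes, 53 keratin genes and 56 keratin-associated protein genes, of 20665 autosomal protein-coding genes. All 109 received a timing value, as did 18355 of the 20665. The rule used names only, and no measured value. By position the members formed 3 large clusters, of 50 genes on chromosome 11, 26 on chromosome 15 and 24 on chromosome 16, and smaller groups of 5 genes on chromosome 7, 3 on chromosome 10 and 1 on chromosome 1.

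The cells were myeloid lines made to grow without limit by the homeobox protein HoxB8 and selected in the growth factor GM-CSF. Of the 6 samples, 3 were WT and 3 were Recql4-/- Klhdc3-/-, lacking a helicase that acts in the start of DNA replication and a substrate receptor of a ubiquitin ligase, and all 6 shared the HoxB8 immortalisation and the GM-CSF selection. The labels gave a division time of 15 to 18 hours, with over 25% of cells in S phase, and did not say whether they were separate clones, animals or cultures, or at what age cells were taken. The 6 deposited value columns carried no sample names, so they are given as profiles A to F in column order, no genotype was compared and no test was run. The labelled myeloid identity cannot be checked against marker genes in DNA copy level.

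Keratins are the intermediate filament proteins of epithelial cells. A type I and a type II keratin pair to build each filament, and each epithelium has its own pairs, with a further set in hair and nail. Keratin-associated proteins are small proteins, rich in cysteine or in glycine and tyrosine, that fill the space between keratin filaments in the hair shaft. Their genes lie in dense tandem arrays. In a growing culture, DNA that replicates early in S phase is present in more copies than DNA that replicates late, so copy level along the genome follows the order of replication. Gene-rich, active DNA tends to replicate early, and large silent gene arrays tend to replicate late.

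The 4 sequences below show the kind of gene start found across the timing range of the large clusters. They run from chromosome 15, the earliest of these clusters, through chromosome 11 to the late cluster on chromosome 16. The chromosome 15 cluster had a median timing score of 0.747 over the profiles, against 0.815 for all scored genes. Each sequence is the 100 bases before the annotated start, written along the gene's strand, from the RefSeq promoter table of GRCm38.p6. Capitals mark TATAAA, the core of the TATA box. These 4 examples cannot show a trend with timing. TATAAA was also found in 4 of 16 promoters on chromosome 15 and in 4 of 5 in the early group on chromosome 7. The promoter of Krt18 had a GC content of 61.3%, against a median of 53.3% on chromosome 15. Krt18 (chr15:102028116-102028215, plus strand) had a median timing score of 0.852, Krt10 (chr11:99389365-99389464, minus strand, 1 of the starts within its annotated span) of 0.382, Krtap4-9 (chr11:99785100-99785199, plus strand) of -0.0548 and Krtap19-9b (chr16:88932265-88932364, minus strand) of -1.18.
Krt18: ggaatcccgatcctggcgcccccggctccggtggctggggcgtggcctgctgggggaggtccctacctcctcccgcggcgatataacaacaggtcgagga
Krt10: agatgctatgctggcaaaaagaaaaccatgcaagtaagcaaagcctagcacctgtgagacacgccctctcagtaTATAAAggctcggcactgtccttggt
Krtap4-9: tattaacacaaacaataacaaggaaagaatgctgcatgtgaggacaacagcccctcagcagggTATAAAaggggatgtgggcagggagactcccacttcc
Krtap19-9b: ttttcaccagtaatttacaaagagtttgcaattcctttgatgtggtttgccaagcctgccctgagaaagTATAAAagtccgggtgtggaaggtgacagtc

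Timing is given as the authors' smoothed score, which is centred on 0 and counts SDs of each profile's autosomal windows, and a higher score stands for earlier replication. Each gene took the score of the window nearest its midpoint, and these windows had a median length of 10041 bp over the whole table. The 109 members lay in 104 distinct windows, and because the score was smoothed, neighbouring members are not independent readings. The depth of each library was unknown, so no counting interval was computed. Over all 18355 scored genes the median score was 0.865, 0.846, 0.818, 0.784, 0.812 and 0.698 in profiles A to F. Chromosome-wide median scores of the chromosomes with members differed by at most 0.209 between profiles, on chromosome 7.

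As a whole the keratin and keratin-associated protein genes replicated later than the typical gene of these cells. Their median score was 0.247, 0.167, 0.197, 0.496, 0.591 and 0.407 in profiles A to F, below the median of all scored genes in each of the 6 profiles. Of the 109 members, 62 scored above 0 in each profile, against 76.2% of all scored genes. A further 23 members scored below 0 in each profile, against 15.5% of all scored genes, and 24 lay on both sides of 0, against 8.31%.

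The division followed the clusters, and the kind of gene was largely tied to the cluster. Of the 53 keratin genes, 50 scored above 0 in each profile and none scored below 0 in each, with a median of 0.641 over the profiles (range 0.583 to 0.842). Of the 56 keratin-associated protein genes, 12 scored above 0 and 23 below 0 in each profile, with a median of -0.0179 (range -0.230 to 0.251). All 23 lay on chromosome 16. The 5 on chromosome 7 and the 3 on chromosome 10 all scored above 0, with medians of 0.890 and 1.06. Within the chromosome 11 cluster the median was 0.478 for keratin genes and 0.0488 for keratin-associated protein genes. The cluster on chromosome 15 was earlier than that on chromosome 11, and that on chromosome 11 earlier than that on chromosome 16, in each of the 6 profiles, and the ranges of the 3 cluster medians over the profiles did not overlap. The medians were 0.747 on chromosome 15 (range 0.651 to 0.915), 0.222 on chromosome 11 (0.0466 to 0.515) and -1.14 on chromosome 16 (-1.19 to -0.991).

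**Figure D1:**
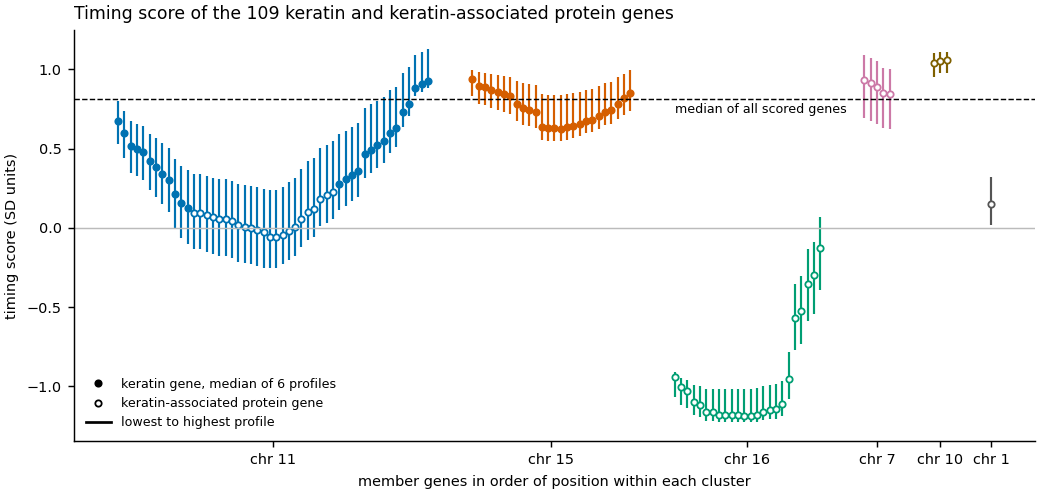
Timing score in SD units (vertical axis) of the 109 members in order of position within each cluster (horizontal axis). Circles are medians of the 6 profiles, filled for keratin and open for keratin-associated protein genes, lines run from the lowest to the highest profile, and the dashed line is the median of all scored genes. Members on chromosome 11 form a trough around 0, those on chromosome 15 stay above 0.5, and most on chromosome 16 lie near -1.1.

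The cluster on chromosome 11 holds the type I keratins, 27 in number here, on both sides of an array of 23 keratin-associated protein genes. It runs from Krt222 to Krt42 (99232761 to 100269951, 1037 kb), and the other 15 annotated protein-coding genes inside it carry only predicted-gene or clone names. The scores formed a single trough. At Krt222, the first member, the scores were 0.683, 0.532, 0.613, 0.696, 0.800 and 0.670. At Krt42, the last, they were 0.885, 0.893, 0.955, 0.967, 1.13 and 0.904. Between them the lowest window lay nearest Krtap4-8 in each of the 6 profiles, 490 to 531 kb from the start of the cluster. There the score was -0.189, -0.249 and -0.267 in A, B and C, and 0.186, 0.229 and 0.0723 in D, E and F. The position of the trough was thus alike in the profiles, and its depth was not. At 46 of the 50 members A, B and C all scored below D, E and F, against 7.37% of all scored genes, and at 0 of the 50 all above them, against 26.8%. On the rescaled raw level of the same single windows the count was 12, and on raw levels averaged within 50 kb it was 46. These alternatives were chosen after seeing the data, and their shares over all scored genes were not computed. The columns' samples are unknown, so the arrangement says nothing of genotype.

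The type I keratins became later step by step towards the array. On the side nearer the start of the chromosome lay the inner root sheath keratins Krt25, Krt26, Krt27 and Krt28, with medians that fell along the chromosome from 0.519 at Krt25 to 0.420 at Krt28. Krt10, the type I keratin of the suprabasal epidermis, scored 0.325, 0.196, 0.197, 0.496, 0.565 and 0.438. Krt12, the keratin of the corneal epithelium, scored 0.279, 0.154, 0.148, 0.472, 0.535 and 0.407. Krt20, found in intestinal and urothelial epithelium, scored 0.234, 0.114, 0.101, 0.448, 0.505 and 0.376. In each of these 3 genes profile E was highest and B or C lowest. Krt23, Krt39 and Krt40, the last keratins before the array, were the only keratin genes of the 53 with scores on both sides of 0. Krt40, a hair keratin, scored 0.0264, -0.0705, -0.101, 0.330, 0.366 and 0.230, with A, D, E and F above 0 and B and C below.

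Beyond the array the order was reversed. The hair shaft keratins Krt33a, Krt33b, Krt34, Krt31, Krt32, Krt35 and Krt36 rose along the chromosome from a median of 0.280 at Krt33a to 0.521 at Krt36. They were followed by Krt13 of the oral and oesophageal mucosa (median 0.548), by Krt15 of the basal layer (0.602) and by Krt19 of simple epithelia (0.629). Krt14, the type I keratin of the basal epidermis, scored 0.715, 0.704, 0.777, 0.864, 1.02 and 0.792. Krt16 and Krt17, induced in wounded skin and present in nail, had medians of 0.883 and 0.907. These later genes of the cluster lay beside Eif1, a translation initiation factor (median 1.04), and Hap1 (1.10). The gene before the cluster was Smarce1, a chromatin remodelling subunit, with a median of 0.712.

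The keratin-associated protein genes of chromosome 11 sat in the trough itself. The array runs from Krtap3-3 to Krtap17-1 (99550132 to 99993994, 443.9 kb). Of its 23 genes, 3 scored above 0 in each profile (Krtap29-1, Krtap16-1 and Krtap17-1, at its far end) and 20 lay on both sides of 0. The latest, Krtap4-8, scored -0.187, -0.244, -0.250, 0.190, 0.241 and 0.0769, and Krtap4-9 shared its window. The 8 genes of the Krtap4 family, which encode proteins very rich in cysteine, had a median of -0.0224, and the 3 of the Krtap9 family a median of 0.0423. The spread between profiles was widest here, at 0.498 in Krtap31-1 and 0.497 in Krtap31-2, just under the limit of 0.5 that 8.48% of all scored genes reached. In Krtap31-1 the scores were -0.0700, -0.123, -0.0876, 0.291, 0.375 and 0.183, lowest in B and highest in E. A range of at least 0.3 was reached by 45 of the 50 members on chromosome 11 and by 56 of all 109, against 39.5% of all scored genes.

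The raw copy level, the unsmoothed value of the same windows, was likewise higher in D, E and F than in A, B and C over the array. Over its 40 windows the mean raw level was 1.92, 1.93, 1.93, 1.96, 1.96 and 1.95 in A to F, with an SD over windows of 0.102 to 0.123. Rescaled to the mean and SD of each profile's autosomal windows, the means were -0.274, -0.282, -0.288, -0.0179, 0.0228 and -0.0988. The mean score over the whole cluster minus that of the flanking 500 kb on both sides was -0.815 (median over the profiles, range -1.07 to -0.625). The left flank had a median of 1.01 and the right flank of 1.32.

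**Figure D2:**
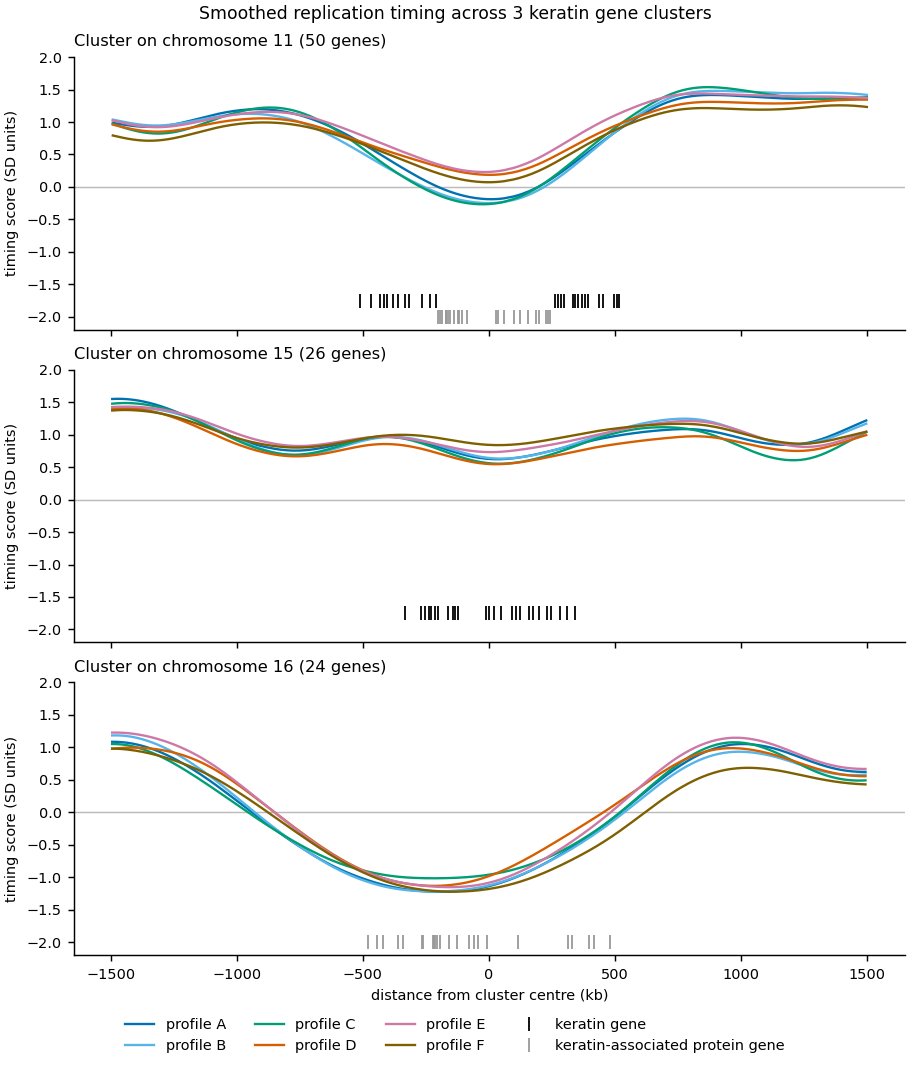
Smoothed timing score in SD units (vertical axis) against distance from the centre of the 3 large clusters in kb (horizontal axis), 1 line for each profile A to F. Ticks at the bottom mark keratin genes (black) and keratin-associated protein genes (grey). The chromosome 11 array lies at the bottom of a trough, the chromosome 15 cluster at a shallow dip that stays above 0.5, and the chromosome 16 cluster in a broad late valley near -1.2.

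The cluster on chromosome 15 holds the type II keratins and Krt18, the 1 type I keratin outside chromosome 11. It runs from Krt80 to Krt18 (101348315 to 102032026, 683.7 kb), with 1 other protein-coding gene inside, Gm5414. All 26 members scored above 0 in each profile. The earliest was Krt80, with a median of 0.943, and the latest Krt71, an inner root sheath keratin, with 0.627. Krt71 scored 0.622, 0.631, 0.552, 0.547, 0.736 and 0.839. The dip was shallow: the lowest window lay nearest Krt71 in 4 profiles, Krt5 in D and Krt6a in E, and the cluster mean minus that of the flanks was -0.189 (range -0.241 to -0.0902).

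Along chromosome 15, Krt80 and Krt7 were followed by hair keratins. Of these, Krt87, Krt81, Krt86 and Krt83 had medians of 0.888, 0.858, 0.846 and 0.833. Krt5, the type II keratin of the basal epidermis, scored 0.623, 0.636, 0.555, 0.546, 0.732 and 0.840. Krt1, its counterpart in the suprabasal layers, scored 0.675, 0.672, 0.605, 0.597, 0.788 and 0.872. Krt8, the type II keratin of simple epithelia, scored 0.812, 0.822, 0.777, 0.715, 0.893 and 0.972. Krt18, with which Krt8 forms filaments, scored 0.843, 0.861, 0.820, 0.740, 0.919 and 0.994. In these 4 genes profile F was highest and D lowest. The ranges were narrower than on chromosome 11: none of the 26 reached 0.3, and the widest was 0.295, in Krt6a.

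Because type I and type II keratins lie mostly on different chromosomes, the genes of a filament pair could be set side by side within each profile. For Krt8 and Krt18, neighbours on chromosome 15, Krt8 minus Krt18 was -0.0280 score units (range -0.0426 to -0.0223), with Krt18 earlier in each profile. For Krt5 and Krt14 of the basal layer the type II gene minus the type I gene was -0.157 (range -0.318 to 0.0481), with Krt5 the earlier gene in 1 of 6 profiles. For Krt1 and Krt10 of the suprabasal layers the difference was 0.379 (range 0.10 to 0.476), with Krt1 earlier in each profile. For Krt6a and Krt16 it was -0.272 (range -0.388 to -0.0269), with Krt16 earlier in each profile. For Krt4 and Krt13 of the mucosa it was 0.233 (range -0.0389 to 0.321), with Krt4 earlier in 5 of 6. The sign of the difference therefore varied between pairs.

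**Figure D3:**
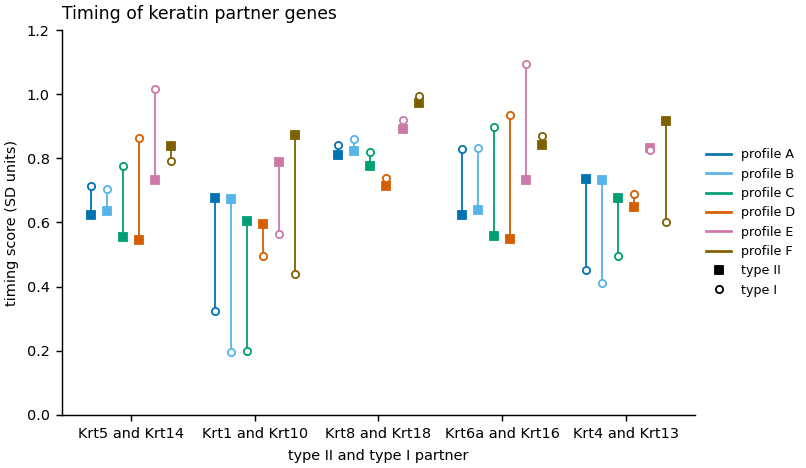
Timing score in SD units (vertical axis) of 5 pairs of type II (squares) and type I (circles) keratin genes (horizontal axis), with a line joining the partners in each profile A to F. Krt1 lies above Krt10 and Krt16 above Krt6a in all 6 profiles, and the 2 genes of the Krt8 and Krt18 pair nearly coincide.

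The cluster on chromosome 16 holds only keratin-associated protein genes and was the latest. It runs from Krtap24-1 to Krtap11-1 (88610709 to 89571183, 960.5 kb), with 34 other annotated protein-coding genes inside, all with predicted-gene or clone names. Of its 24 members, 23 scored below 0 in each profile. The share of all scored genes that were later than a member was 4.16% at the median of the cluster. Krtap24-1, the first member, scored -1.04, -1.07, -0.912, -0.924, -0.931 and -0.955. Krtap19-5, the latest, scored -1.22, -1.22, -1.02, -1.13, -1.15 and -1.22. The 6 profiles agreed within 0.209 there, with C the least late.

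The families of this cluster differed by position. The 6 genes of the Krtap19 family, which encode small proteins rich in glycine and tyrosine, scored near the bottom of the valley, at a median of -1.18 (range -1.22 to -1.02). Of the 4 Krtap6 genes, of the same kind, Krtap6-1, Krtap6-5 and Krtap6-3 had medians of -1.15, -1.14 and -1.11, and Krtap6-2, which lies apart from them, had -0.524. Towards the right edge Krtap21-1, Krtap8-1 and Krtap7-1 had medians of -0.571, -0.353 and -0.300. Krtap11-1, the last member, scored -0.130, -0.168, -0.123, 0.0672, -0.00795 and -0.391 and was the 1 member not below 0 in each profile. Its range of 0.458 was the widest of the cluster, and F was the lowest profile.

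The valley was broader than the cluster. In the 6 profiles the lowest window lay 259 to 339 kb from the first member, and the distance from the timing peak on its left to that on its right was 2382 to 2537 kb. The score rose by 2.07 to 2.41 to the left peak and by 1.91 to 2.30 to the right peak. The claudin genes Cldn17 and Cldn8, which encode tight junction proteins, lay just before the cluster at medians of -0.784 and -0.862. On the right Tiam1, an exchange factor for the small GTPase Rac, had a median of 0.947 and Sod1, a superoxide dismutase, of 0.907. The mean raw level over the cluster was 1.83, 1.84, 1.88, 1.85, 1.82 and 1.81 in A to F, below the mean level of 2.04 to 2.11 on chromosome 15 in each profile.

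The smaller groups were early or near 0. The 5 Krtap5 genes on chromosome 7 (142174532 to 142304503), which encode proteins very rich in cysteine, had medians of 1.02, 1.05, 0.894, 0.887, 0.721 and 0.655 in A to F, highest in B and lowest in F. Krtap5-5 scored 1.02, 1.05, 0.894, 0.887, 0.721 and 0.655. Ctsd, which lies after Ifitm10 beyond the group and encodes the lysosomal protease cathepsin D, had a median of 0.819. The 3 genes on chromosome 10, Krtap12-1, Krtap10-4 and Krtap10-10 (77720586 to 77837251), were the earliest members, with a median of 1.06 (range 0.977 to 1.11). Krtap28-13, alone on chromosome 1 (83060930 to 83061921), scored 0.318, 0.181, 0.139, 0.139, 0.0158 and 0.165, on a slope from Agfg1 (median 0.556) to Daw1 (-0.198).

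Grouped by the epithelium in which they are used, the keratins had medians between 0.494 and 0.742. The 6 keratins of simple epithelia had a median of 0.705, the 3 of the basal layer 0.683, the 5 of the suprabasal epidermis 0.655, and the 4 of wound and nail 0.742. The 4 of mucosa and cornea had a median of 0.608, the 8 of the inner root sheath and companion layer 0.560, and the 15 of the hair shaft 0.494. Of the 6 simple epithelial genes 5 scored above 0 in each profile, with Krt23 on both sides of 0, and of the 15 hair shaft genes 13 did, with Krt39 and Krt40 on both sides. Each of the other groups scored above 0 throughout. The 28 type I keratins had a median of 0.487 (range 0.337 to 0.704) and the 25 type II keratins of 0.742 (range 0.650 to 0.914), and the type II median was the higher in each of the 6 profiles. Since 27 of the type I genes lie on chromosome 11 and all 25 type II genes on chromosome 15, this repeats the difference between those clusters. The epithelium groups each mix genes of both clusters, and their medians depend on that mixture.

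The members lay in gene-dense DNA, and those of the 3 large clusters were, as medians, later than genes of such density. The median number of other protein-coding genes within 250 kb was 25 for the members and 8 for all scored genes. It was 30.5 on chromosome 11, 17 on chromosome 15 and 26 on chromosome 16. Among all scored genes the median score was 0.612 with 0 to 9 such neighbours, 1.02 with 10 to 19, 1.12 with 20 to 29 and 1.07 with 30 to 45. Of the 8170 genes with at least 10 neighbours, 529 had a median score below -0.9, or 6.47%, close to the 6.04% of all scored genes. These 529 included 19 of the 24 members on chromosome 16. The others were mainly genes of tandem families, 388 olfactory receptors (Olfr), 18 bitter taste receptors (Tas2r), 17 late cornified envelope genes (Lce), 14 small proline-rich protein genes (Sprr) and 13 prolactin family genes (Prl). Members and their family neighbours count each other in this density.

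**Figure D4:**
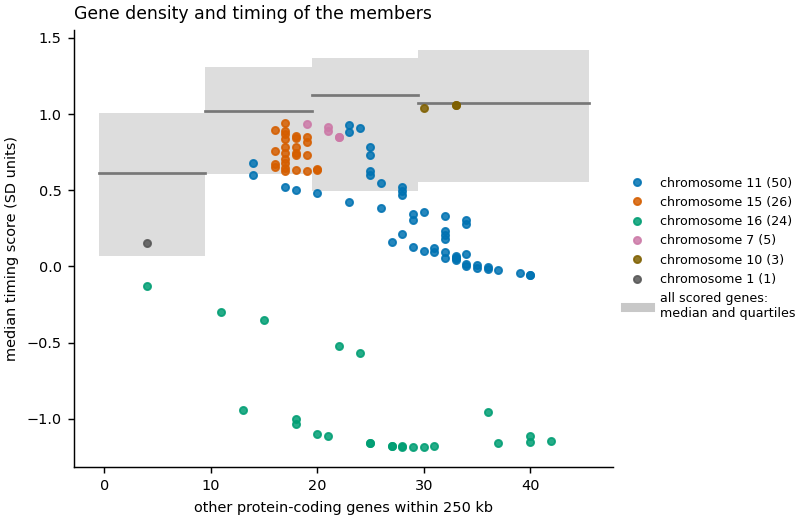
Median timing score of each member in SD units (vertical axis) against the number of other protein-coding genes within 250 kb (horizontal axis), coloured by chromosome. Grey bands run from the lower to the upper quartile of all scored genes in 4 ranges of density, with the median as a line. Members on chromosome 16 lie below the bands, and those on chromosome 11 approach 0 where density is highest.

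Other gene lists of epithelial cells held further late arrays, and single genes on both sides of the median of all scored genes, 0.815. Of all scored genes, 76.2% scored above 0 and 15.5% below 0 in each profile. The 44 measured genes of the cornified envelope, which builds the outer skin barrier, lie together on chromosome 3 (92080271 to 93471980), and all 44 scored below 0 in each profile, with a median of -1.31 (range -1.43 to -1.25). The latest was Lor, which encodes loricrin, at -1.71, and the earliest Tchhl1, at -0.177. The chromosome-wide median score of chromosome 3 was -0.587 to -0.215 in the 6 profiles. Of 16 desmosome genes, which join keratin filaments to cell contacts, 10 scored above 0 and 3 below 0 in each profile. Jup, which encodes plakoglobin and lies beside the chromosome 11 cluster, had a median of 1.17, and Dsp, which encodes desmoplakin, of 0.760. The 3 late genes were the desmocollins Dsc1, Dsc2 and Dsc3 on chromosome 18, at -0.552, -0.680 and -0.859.

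The 6 linker genes that tie keratins to junctions and other filaments all scored above 0 in each profile, from Dst at 0.397 to Plec, which encodes plectin, at 1.63. The 15 scored genes of other intermediate filaments also all scored above 0 in each profile, against 76.2% of all scored genes. Their median was 0.933. Among these Vim, which encodes vimentin, the filament protein of mesenchymal and blood cells, scored 0.573, 0.559, 0.430, 0.586, 0.523 and 0.612, and Lmna, which encodes lamins A and C, had a median of 1.47. Of 9 scored regulators of skin and hair, 6 scored above 0 in each profile, against the same 76.2%. Foxn1, needed for hair shaft formation, had a median of 1.64, Trp63, which directs stratified epithelia, of 1.05, and Hoxc13, a regulator of hair keratins, of 0.833. Gata3, Msx2 and Klf4 lay on both sides of 0. Klf4 scored -0.482, -0.327, -0.276, -0.0980, 0.0445 and 2.29, with profile F apart from the rest. It lies on chromosome 4, 1 of those left out of the rescaled scores given below. Whether its level in F reflects timing or a change of copy number was not tested.

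Raw levels departed from the smoothed profile in a way the 6 profiles shared. The departure was the raw level of a window minus the level fitted from its score by a straight line in each profile. Over the 104 member windows it had a shared SD of 0.110 between windows and an SD of 0.0563 of single profiles around their window's mean, and the median correlation between profiles was 0.796. Over all 202423 autosomal windows valued in each profile these values were 0.108, 0.0577 and 0.780, so the member windows were like the rest. The sign was the same in each profile at 59 of the 104 windows, above at 28 and below at 31. The share of all autosomal windows with 1 sign was not computed, so this count does not set the members apart.

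The largest departure on either side was at a keratin gene. At Krt24 the raw level was 1.72, 1.65, 1.67, 1.67, 1.81 and 1.79 in A to F, a median departure of -0.364 (range -0.395 to -0.256). At Krt87, a hair keratin gene, it was 2.47, 2.42, 2.38, 2.48, 2.42 and 2.44, a median departure of 0.320 (range 0.294 to 0.413). Krt6b and the keratin-associated protein gene Krtap5-3 followed on the low side with -0.274 and -0.250. Krt4 and Krt73 followed on the high side with 0.211 and 0.210. Krt24 was thus low and Krt87 high in every profile, while their smoothed scores lay close to those of their neighbours. Krt81, Krt83, Krt86 and Krt87, and Krt6a and Krt6b, are close paralogs, for which reads may be shared or lost in mapping. Copies that differ from the reference genome, base composition and mapping were not tested as causes.

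**Figure D5:**
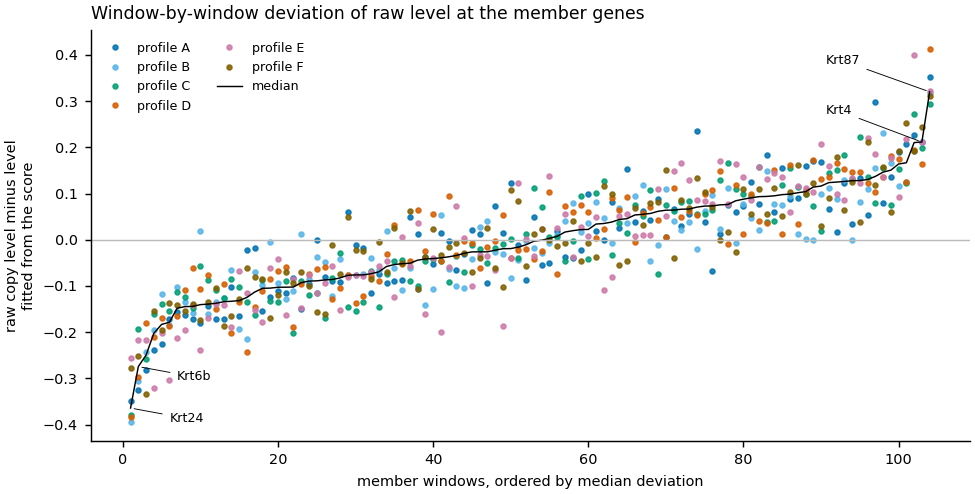
Raw copy level minus the level fitted from the smoothed score (vertical axis, in units of the raw level) at the 104 member windows, ordered by the median of the 6 profiles (horizontal axis). Points are profiles A to F and the line is their median. The profiles move together, from -0.364 at Krt24 to 0.320 at Krt87.

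The starts of many members shared a motif and a base composition, neither of which the rule used. The RefSeq promoter table, which gives 250 bases before and 50 after an annotated start, held 88 promoters of 87 of the 109 members. The 6 letters TATAAA, capitalised above in Krt10, Krtap4-9 and Krtap19-9b, occurred along the gene's strand in 59 of the 88, or 67.0%. The share was 8.32% of all 32851 promoters of the table and 8.21% of the 17762 of scored genes. On the opposite strand, where the search reads TTTATA, the shares were 9.09% of the members' promoters and 6.95% of all. The motif lay between 45 and 16 bases before the start in 51.1% of the members' promoters and 2.76% of those of scored genes. In Krt10, Krtap4-9 and Krtap19-9b its first letter lay 26, 37 and 31 bases before the start.

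The clusters differed in this motif. It was found in 33 of 42 promoters on chromosome 11 (20 of 21 of keratin-associated protein genes and 13 of 21 of keratin genes). It was found in 4 of 16 on chromosome 15 and in 16 of 23 on chromosome 16. The early groups on chromosomes 7 and 10, with median scores of 0.890 and 1.06, had it in 4 of 5 and in 1 of 1. The share therefore did not simply follow timing across the groups. The shorter TATAA, which includes every TATAAA, was found in 86.4% of the members' promoters, in all 23 on chromosome 16, and in 17.5% of all promoters. Median GC content of the promoters was 42.7% on chromosome 11, 53.3% on chromosome 15 and 40.7% on chromosome 16, against 57.0% for scored genes. Across the 87 members, promoter GC content and median score had a Pearson r of 0.630 and a Spearman rho of 0.712. This describes genes that share clusters, windows and sequence families and are not independent. Among all scored genes TATAAA was found in 26.5% of promoters of genes with a median score below -0.9. It was found in 5.11% of those above 0.9. The median GC content of these late and early promoters was 39.3% and 59.3%. The 40.7% on chromosome 16 was thus close to the value of late genes in general.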

How the data were processed

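Whole-genome sequencing depth of 6 cultures, aimed at 30-fold coverage with 150-bp paired reads per the labels' protocols, had been turned into replication timing with TIGER, a method named in the series title. The authors deposited 2 headerless tables of 237602 windows of at least 10000 bp, 1 with a raw copy level and 1 with a smoothed timing score. Both were treated as scores with no fixed range. The build mm10 and Picard 2.23.9 are named in the submitters' processing notes. Which aligner, correction for GC, choice of windows and smoother were used is not given in the sources used here. Autosomal medians of the raw level were 1.96 to 1.98 in the 6 columns. In each profile the autosomal scores average 0 with unit SD, so a stretch that stood apart in 1 profile entered its scale. Chromosome 19 had no values, chromosome 12 had none in D and E, and genes there were not scored.

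Genes took the window nearest their midpoint within 50 kb in the RefSeq annotation of GRCm38.p6, and members closer than 1 Mb formed a cluster. Each quantity is given per profile or as the median and range over the 6 profiles, which are not known replicates. The genes named were the first, last, earliest, latest and most variable members of each large cluster and textbook members of each group. Krt24, Krt87, Krt6b, Krtap5-3, Krt4 and Krt73 and the printed sequences were chosen after their values were seen. Members, lists and tests were chosen with earlier results of these data known. Grouping by protein composition and the GC content of windows were planned and not run, since protein and genome sequence were not used here. The departure statistics were tested on simulated data. Python 3.11.15, numpy 2.4.6, pandas 2.3.3 and scipy 1.17.1 were used. Alternatives were the raw level in place of the score, other gene placements and flanks, another scaling, and each profile left out.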

Additional observations from a re-analysis of the deposited data

How the results depend on the processing

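Under another setting with all 6 profiles, 54 recomputed values stayed within the spread between profiles, or within 1.5 times for counts, 18 moved, and 0 reversed. On the rescaled raw level of single windows the median was 0.0994 for all members (0.327 on the score), 0.521 on chromosome 15 (0.747), -0.709 on chromosome 16 (-1.14), 0.201 on chromosome 7 (0.890), 1.22 on chromosome 10 (1.06) and 0.335 on chromosome 1 (0.152), and 38 members rather than 62 lay above 0 in each profile. With raw levels averaged within 50 kb the medians were 0.616 on chromosome 15, -1.02 on chromosome 16, 0.729 on chromosome 7, 0.864 on chromosome 10 and 0.00462 on chromosome 1, and 57 members had a range of at least 0.5. None did on the score, where 56 had at least 0.3. The share of all scored genes with a range of at least 0.5 on the averaged raw level was not computed. Scores rescaled without chromosomes 3, 4, 6, 12, 14, 17 and 19 gave -1.27 on chromosome 16. The difference of the chromosome 16 cluster from its flanks, -0.952, was -1.32 with flanks of 1 Mb and -0.774 on the rescaled raw level. The count of chromosome 11 members with A, B and C below D, E and F, 46, was 12 on the rescaled raw level. It was again 46 on raw levels averaged within 50 kb. The alternatives for this count were chosen after seeing the data. The rescaled raw level carries the scatter of single windows, and the causes of the other changes were not tested.

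With each profile left out in turn the median was 0.247 to 0.407 for all members, 0.118 to 0.326 on chromosome 11, 0.739 to 0.755 on chromosome 15, -1.18 to -1.11 on chromosome 16, 0.887 to 0.894 on chromosome 7, 1.04 to 1.07 on chromosome 10 and 0.139 to 0.165 on chromosome 1. From 62 to 63 members lay above 0 and from 23 to 24 below 0 in each remaining profile, and 0 reached a range of 0.5. No paired analysis was possible because the value columns carry no replicate numbers. Library depth is unknown, so no value has a counting error. Scores of neighbouring members come from 1 smoothed curve, and a difference between profiles at a cluster is 1 observation, not 50.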

Other observations

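At 46 of the 50 members on chromosome 11 the scores of A, B and C all lay below those of D, E and F, against 7.37% of all scored genes. The count was 12 on the rescaled raw level of single windows. At the array of keratin-associated protein genes the mean scores were -0.0952, -0.161 and -0.162 in A, B and C and 0.260, 0.316 and 0.150 in D, E and F. None of the members on chromosomes 15 and 16 had this arrangement, and 3 of the 5 on chromosome 7 had the opposite one, found at 26.8% of all scored genes. The columns carry no sample names, so the arrangement cannot be tied to genotype and was not tested. The 50 members share 1 trough and are not independent.

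The desmosomal cadherin genes on chromosome 18, whose proteins anchor keratin filaments at cell contacts, showed a like division. The median score of the 9 genes was 0.0470, -0.00366 and -0.0373 in A, B and C and 0.293, 0.257 and 0.187 in D, E and F. Dsc3 scored -0.955, -0.950, -1.03, -0.625, -0.624 and -0.767 in A to F. Dsg2, at the other end of the group, scored 0.846, 0.754, 0.712, 0.839, 0.769 and 0.756, without that division. The division was not general among the 16 desmosome genes. Pkp2 went the other way, at 0.774, 0.809, 0.833, 0.510, 0.450 and 0.687, and Jup and Dsp showed no division. A, B and C all lay below D, E and F at 7.37% of all scored genes. The 9 cadherin genes lie together on 1 smoothed curve and are not independent.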
